A study of Canis lupus familiaris with 5 samples.

Results

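The genes described here are 40 members of the TGF-beta, activin and BMP signalling system, chosen by name from a fixed list and taken from the 35531 named genes of the count matrices. All 40 were found, each as 1 feature. The list holds 7 ligands, 4 latency proteins, 9 receptors and co-receptors, 6 receptor-regulated and common SMADs, 3 secreted antagonists, 7 cell-intrinsic inhibitors and 4 target genes. Together they held between 0.453% and 0.609% of the UMIs (unique molecular identifiers, 1 for each captured RNA molecule) of a library. A fixed set of 4 features, the same for each library, was left out of these totals.

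TGF-beta ligands are secreted in a latent form, bound by the latent TGF-beta binding proteins (LTBPs) to the extracellular matrix, and act once released. TGF-beta and activin signal through type I and type II receptor kinases to SMAD2 and SMAD3, and BMPs through related receptors to SMAD1, SMAD5 and SMAD9. Both arms share SMAD4. In vessels the BMP arm, with the endothelial receptors ACVRL1, BMPR2 and ENG, is known for keeping endothelium quiescent, and the TGF-beta arm for driving matrix production by fibroblasts and smooth muscle cells.

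The data are droplet single-nucleus RNA sequencing of cephalic vein, a superficial forelimb vein, from male mongrel dogs of 25 kg. Control vein was an undistended segment (dogs 1 and 2). Distended vein had been filled with saline holding papaverine and bivalirudin during a harvest of about 30 minutes (dogs 1 and 2). Grafted vein was such a distended vein taken back 24 hours after it had been sewn into the carotid artery as a bypass under systemic bivalirudin (dog 1). All harvests were made under sodium pentothal and isoflurane anaesthesia. No group carries a genetic change, and ages are not given in the labels. Control and distended segments come from the same 2 dogs, the graft comes from 1 of them, and a group of 1 library has no spread of its own.

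The libraries differed in ways that reach every result below. The 5 libraries held between 410604 and 11302558 deposited UMIs, and between 241 and 2705 nuclei were kept, the lowest in distended dog 2 and the highest in the graft. The fixed set of 4 features, here called dominant, took 71.0% and 65.2% of the UMIs of the control libraries. It took 39.8% and 28.0% of the distended ones and 3.00% of the graft. Ribosomal protein genes made up 9.06% of the other UMIs in distended dog 2 and 5.92% in the graft, against 0.461% to 2.62% elsewhere. Distended dog 2 also stood apart by its nuclei: 53 of its 241 nuclei (22.0%) lay in the 11 clusters made up of at least 90% grafted nuclei, where each control library and distended dog 1 had 1 nucleus. Pairs of libraries shared at most 2 cell barcodes. Nuclei were grouped into endothelial-like (2899), fibroblast-like (2497) and smaller classes by marker genes. Endothelial-like nuclei made up 85.9%, 51.0%, 29.8%, 69.3% and 34.0% of the 2 control libraries, the distended pair and the graft, in the order of the dogs. Summed markers of smooth muscle stood at 13.7, 8.22 and 8.55 UMIs per 10000 in the controls and distended dog 1, and at 0.930 and 0.848 in distended dog 2 and the graft, with 7 of the 12 markers at 0 in distended dog 2. The part of these differences in the results was not tested. A value without distended dog 2 shows only how far a result depends on that library.

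Levels of the members in the whole vein overlapped between control and distended libraries for most genes. They are given as TMM-normalised CPM (UMI counts scaled to a common library total), a scale that corrects for the features that dominate a library. Of 38 members tested, 0 passed an adjusted p of 0.05 in any of the 3 comparisons by edgeR's quasi-likelihood test, as did 0 of all 13170 genes (0%). At an unadjusted p under 0.05 stood 2 members for distended against control (1.41% of all genes), 7 for grafted against control (8.82%) and 1 for grafted against distended (5.5%). DESeq2 called 0 members for distended against control and 0 for grafted against distended, and 1, LDLRAD4, for grafted against control. Without distended dog 1 there were 6 calls in that comparison, BMP2, CHRDL1, ID1, LDLRAD4, LTBP1 and LTBP4, and 2 in distended against control, CHRDL1 and ID1. When distended dog 2 was the library omitted, ID1 and LDLRAD4 were called against control and CHRDL1, ID1 and LTBP4 for grafted against distended. The libraries of the 2 groups did not overlap for 9 members in distended against control (23.2% of all genes), 30 in grafted against control (75.6%) and 27 in grafted against distended (61.5%). For the alternative runs here and below, calls over all genes are given only for the fit blocked on the dog. The member counts of the other runs can therefore not be read as particular to the members. In the whole vein, fewer nuclei of a type and less RNA per nucleus cannot be told apart. The 3 comparisons share libraries with each other, so their values are set side by side below and not correlated.

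**Figure D1:**
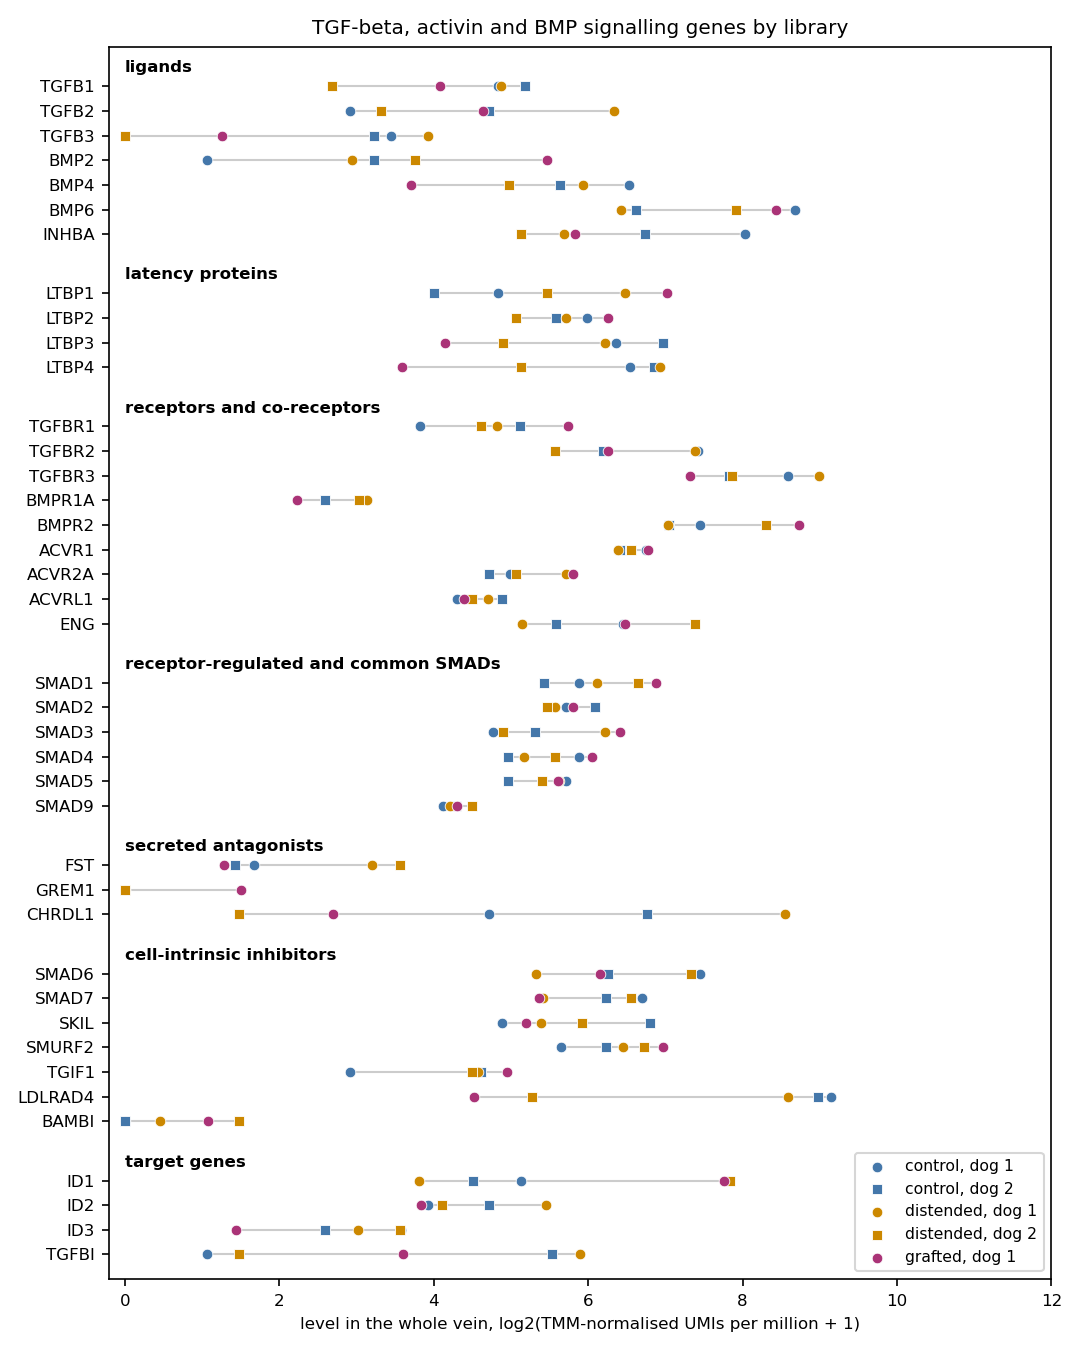
Level of each of the 40 genes in the whole vein, in order of role; the x axis is log2 of TMM-normalised CPM plus 1, each point is 1 library (circles dog 1, squares dog 2; blue control, orange distended, purple grafted) and the grey line spans the 5 libraries. LTBP4 and LDLRAD4 have the graft at the low end, with distended dog 2 nearest to it, and ID1 has the same 2 libraries together at the high end.

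Within the classes, 5 member results were called in the graft against control. LTBP3 and LTBP4 fell and SMAD3 rose in endothelial-like nuclei, which makes 3 of 34 members tested, beside 339 of all 10788 genes (3.14%). LTBP1 rose and LDLRAD4 fell in fibroblast-like nuclei, which makes 2 of 32, beside 182 of all 7368 genes (2.47%). At an unadjusted p under 0.05 there were 13 of 34 members in endothelial-like nuclei, 8 higher (9.36% of all genes) and 5 lower (9.36%), beside 18.7% in either direction. In fibroblast-like nuclei there were 6 of 32, 1 higher (4.87%) and 5 lower (7.91%), beside 12.8% in either direction. The median log2 fold change was 0.04 over the endothelial-like members and 0.42 over the fibroblast-like ones, beside 0.07 and 0.28 over all genes. The graft lay outside both controls for 28 of 34 endothelial-like members (76% of all genes) and 24 of 32 fibroblast-like ones (67.3%). Other clusters hold these classes in the graft than in the controls: 919 grafted endothelial-like nuclei lay 80.0% in cluster 3 and 19.3% in cluster 8, and 99.7% of the 780 grafted fibroblast-like nuclei lay in cluster 1. The control nuclei lay mostly in endothelial-like clusters 2, 4, 5, 15 and 16 and in fibroblast-like cluster 6. Cluster 4, with 89 and 86 control nuclei and none of the graft, was led by HBM, a haemoglobin gene, and held 4 erythroid markers beside 8 endothelial ones. Without it the endothelial-like calls were LTBP3, LTBP4, SMAD3 and LDLRAD4, a count chosen after seeing the data. Of the distended nuclei, those of dog 1 lay mostly in clusters 2, 5 and 0, and those of dog 2 in cluster 5 (77.2% of the endothelial-like) and cluster 1 (72.5% of the fibroblast-like). When the fit was blocked on the dog, 0 of the 5 calls remained (adjusted p between 0.0674 and 0.349). With clusters made without the pathway genes, none of the 3 endothelial-like calls remained (adjusted p between 0.0548 and 0.0851). LTBP3 was also lost with clusters made without the dominant features (0.0543), and LTBP3 and SMAD3 at a resolution of 0.4 (0.0534 and 0.0605). DESeq2 called 4 members in that class, INHBA, LDLRAD4, LTBP3 and LTBP4. Without control dog 1 the endothelial-like calls were LTBP3, LTBP4, SMAD3 and LDLRAD4. Omitting control dog 2 gave 6 calls, with BMP2, BMP4, INHBA and LDLRAD4 added and SMAD3 lost. Omitting either distended library gave 8, with BMP2, BMP4, ID1, INHBA and LDLRAD4 added. The fibroblast-like count went to 0 when either control library was omitted.

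**Figure D2:**
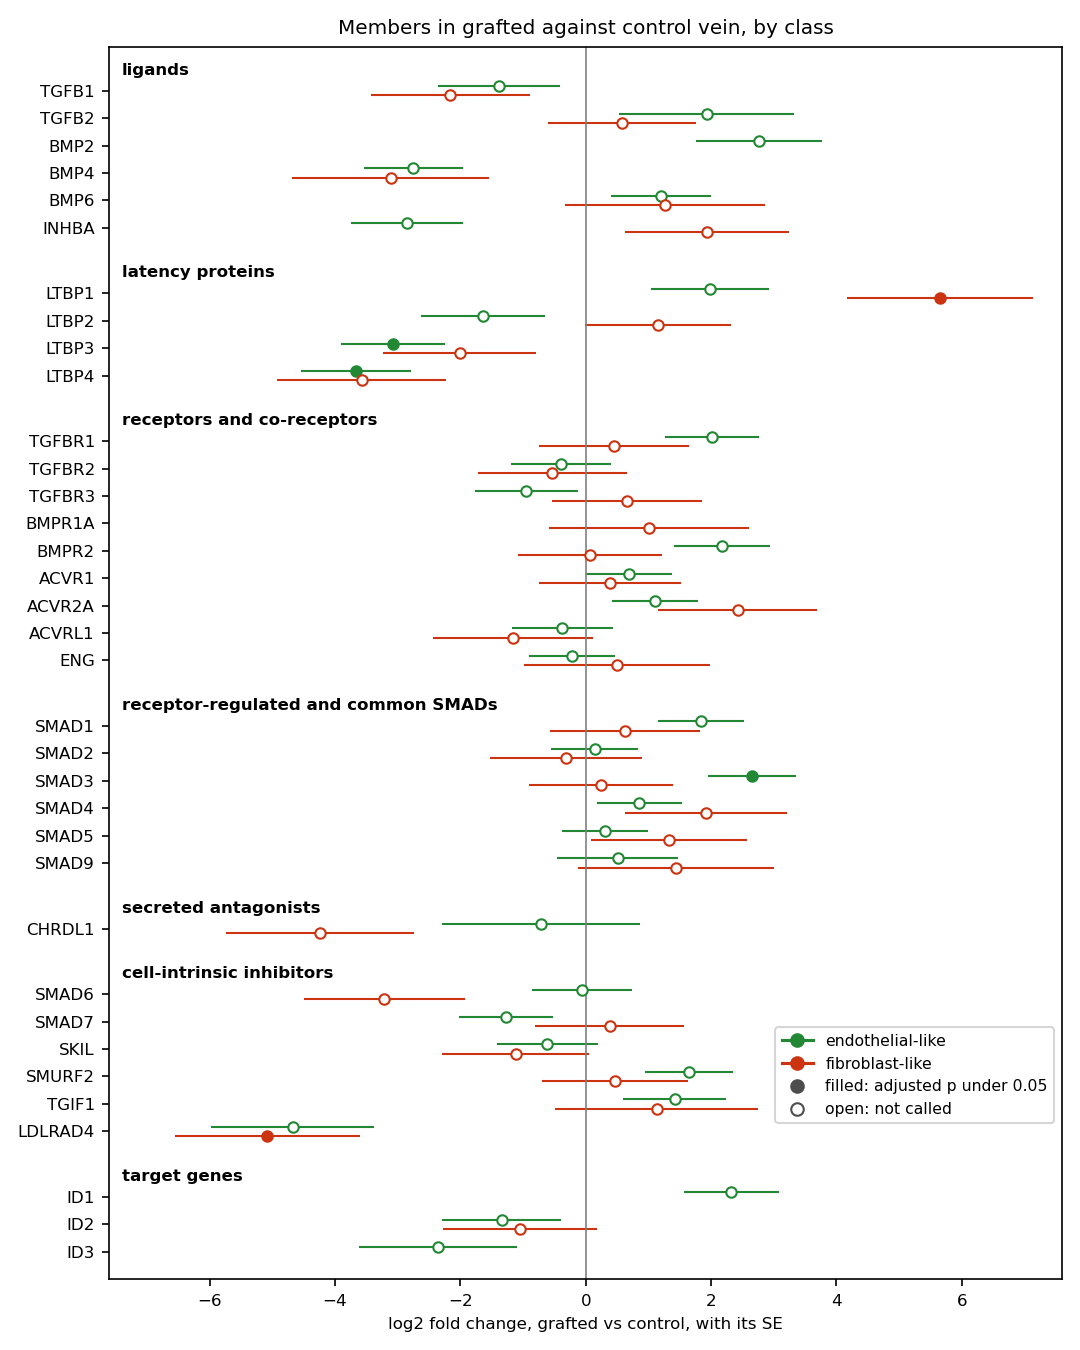
Log2 fold change of each tested member in grafted against control vein (x axis) with its standard error as a bar, in endothelial-like (green) and fibroblast-like nuclei (red); filled points passed an adjusted p of 0.05. LTBP3, LTBP4 and SMAD3 are filled in green and LTBP1 and LDLRAD4 in red, and INHBA has points on both sides of 0.

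For distended against control, 0 of 34 members were called in endothelial-like nuclei (0% of all genes) and 0 of 32 in fibroblast-like nuclei (0.0271%). The unadjusted p was under 0.05 for 3 endothelial-like members, INHBA, LTBP1 and LTBP2 (3.48% of all genes), and for LTBP1 alone in fibroblast-like nuclei (1.33%). DESeq2 called 0 members in both, and without distended dog 1 edgeR called LDLRAD4 in endothelial-like nuclei. Libraries did not overlap for 12 endothelial-like members (27.8%) and 10 fibroblast-like ones (27.2%). For grafted against distended, 0 members were called in endothelial-like nuclei (1.05% of all genes), with 5 at an unadjusted p under 0.05 (10.9%). In fibroblast-like nuclei BMP4 alone was called (3.04%), with 4 at an unadjusted p under 0.05 (12.8%). By DESeq2 both counts for grafted against distended were 0, and BMP4 got no adjusted p from it. LTBP4 and LDLRAD4 were called in endothelial-like nuclei when control dog 1, control dog 2 or distended dog 2 was omitted. In fibroblast-like nuclei LDLRAD4 was called when either control was omitted, and 6 members (BMP4, CHRDL1, FST, LDLRAD4, TGFB3 and TGFBI) without distended dog 2. The graft lay outside both distended libraries for 24 endothelial-like members (69%) and 22 fibroblast-like ones (64.9%).

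The latency proteins differed in direction between members. LTBP1 binds latent TGF-beta to matrix and is needed for its activation by integrins. In the whole vein LTBP1 stood at 27.4 and 15.1 CPM in the control dogs, 88.4 and 43.1 in the distended dogs and 128 in the graft. All distended libraries lay above both controls, and the graft lay above all 4. The log2 fold change was 1.63 ± 0.71 (SE) for distended against control (unadjusted p = 0.0473, adjusted p = 1) and 2.58 ± 0.81 for grafted against control (adjusted p = 0.556).

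In fibroblast-like nuclei LTBP1 had 0 and 2 UMIs in the control dogs, 101 and 20 in the distended dogs and 1653 in the graft. As levels these are 0, 11.0, 79.5, 295 and 462 CPM, so the groups do not overlap. Control dog 1 had 51 fibroblast-like nuclei, and 0 UMIs there allow a level of up to 111.6 CPM, above that of distended dog 1. From the pooled counts the graft was 48.3-fold above the controls, with a 95% counting interval of 13.4 to 399. Such an interval covers counting alone and not the spread between libraries. The graft was called against control (adjusted p = 0.0167), and the call was lost when blocked on the dog (adjusted p = 0.191) and when control dog 1 (0.125) or control dog 2 (0.770) was omitted. The pooled counts of the distended libraries were 9.45-fold above the controls (interval 2.56 to 78.9). The fitted log2 fold change, in which each library counts, was 4.27 ± 1.42 (unadjusted p = 0.00262, adjusted p = 1), with 3.19 without distended dog 2 and 10.67 without control dog 2, which leaves the controls at 0 UMIs. Summed fibroblast markers in this class were 104, 122.5, 116, 46.5 and 50.4 UMIs per 10000 in the 5 libraries, and summed smooth muscle markers 20.5, 7.498, 6.70, 1.79 and 0.686. Whether these move LTBP1 was not tested.

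In endothelial-like nuclei LTBP1 was at 10.7 and 8.89 CPM in the controls, 87.2 and 6.05 in the distended dogs and 39.8 in the graft. Distended dog 1 alone was above the graft, and distended dog 2 was below both controls. Smooth muscle-like nuclei numbered at least 20 in 1 library of each group, so no test was made. There LTBP1 had 5.32 UMIs per 10000 in control dog 1 (13 UMIs), 2.19 in distended dog 1 (6 UMIs) and 27.6 in the graft (188 UMIs). The 36 grafted nuclei of that class had 44.0 UMIs per 10000 of smooth muscle markers and 45.2 of fibroblast markers, against 253.5 and 6.95 in control dog 1.

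LTBP4, which binds latent TGF-beta1 and helps build elastic fibres, went the other way. It stood at 86.8 and 77.0 CPM in endothelial-like nuclei of the controls, 94.8 and 33.3 in the distended dogs and 6.45 in the graft. The graft was lowest, and the distended dogs lay on either side of the controls. The log2 fold change of the graft against control was -3.66 ± 0.88 (adjusted p = 0.0264; with the dog as a block -4.06 and 0.0674), and against distended -3.35 ± 0.86 (adjusted p = 0.0683). In fibroblast-like nuclei the levels were 149 and 225 CPM, 165 and 73.8 CPM, and 16.2 CPM in the graft. The graft was again lowest and distended dog 1 lay between the controls, at -3.57 ± 1.35 against control (adjusted p = 0.152). Over the whole vein LTBP4 had 92.1 and 114 CPM in the controls, 121 and 34.2 in the distended dogs and 11.0 in the graft, at -3.22 ± 1.05 against control (adjusted p = 0.559).

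LTBP3, which helps TGF-beta1 to be secreted, fell in endothelial-like nuclei of the graft. Its levels were 80.9 and 130.3 CPM in the controls, 71.1 and 33.3 in the distended dogs and 12.3 in the graft. Both distended libraries lay below both controls and the graft lay below them. Against control the log2 fold change of the graft was -3.08 ± 0.83 (adjusted p = 0.0485; 0.135 with the dog as a block). It lay at -2.01 ± 1.22 in fibroblast-like nuclei (adjusted p = 0.503). Over the alternative analyses the endothelial-like adjusted p of LTBP3 ranged from 0.00649 to 0.135 and that of LTBP4 from 0.00190 to 0.0674.

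LTBP2, which does not bind latent TGF-beta and sits on elastic fibres, was mostly a fibroblast-like gene outside control dog 1. Fibroblast-like nuclei held 97.8% of its UMIs in distended dog 1 and 75.7% in the graft, but 8.77% in control dog 1, where endothelial-like nuclei held 91.2%. In fibroblast-like nuclei LTBP2 was at 186 and 137 CPM in the controls, 106 and 177 in the distended dogs and 348 in the graft, which was highest at 1.153 ± 1.165 against control (adjusted p = 0.741). In endothelial-like nuclei control dog 1 had 61.8 CPM and the other libraries between 2.84 and 12.1. The low p of distended against control there (-2.64 ± 0.96, unadjusted p = 0.0126) came with groups that overlap.

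**Figure D3:**
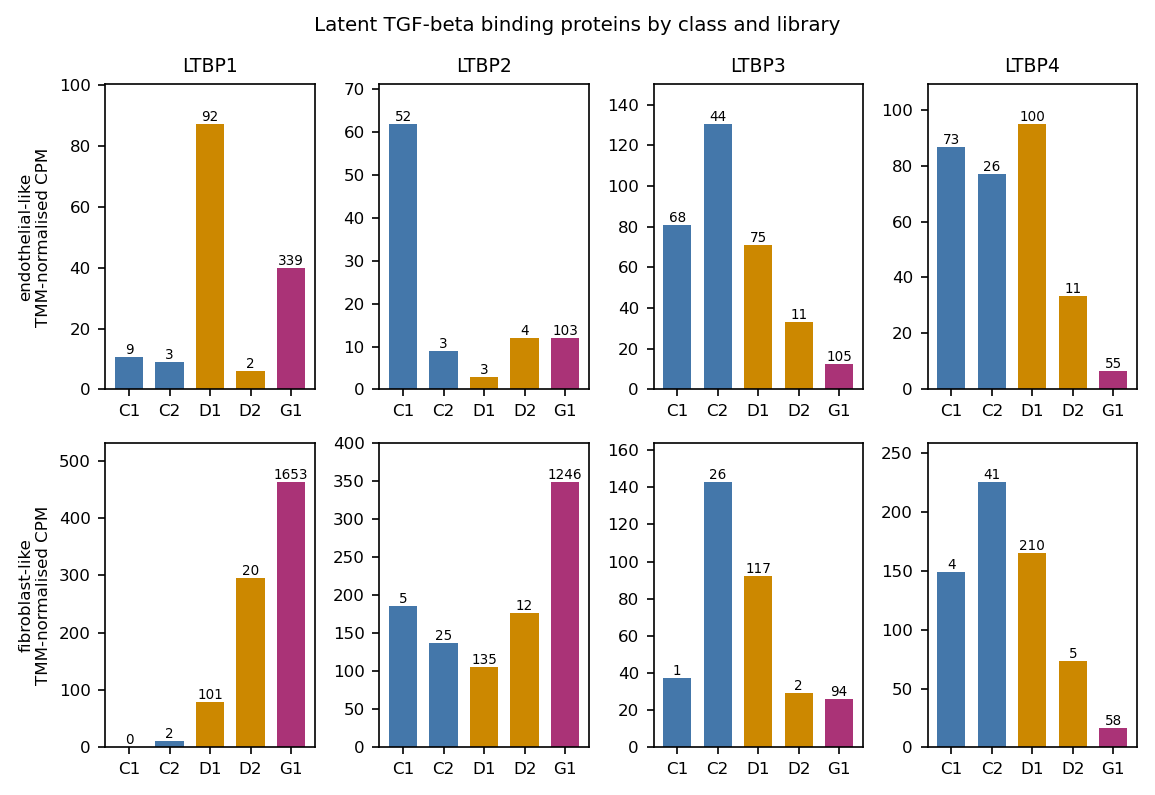
Levels of LTBP1 to LTBP4 as TMM-normalised CPM (y axis, from 0) in endothelial-like (top) and fibroblast-like nuclei (bottom) of control dogs 1 and 2 (C1, C2), distended dogs 1 and 2 (D1, D2) and the graft (G1); each bar is 1 library and the number on it is its UMI count. LTBP1 in fibroblast-like nuclei runs from 0 UMIs in C1 to 1653 in G1, and LTBP4 has its lowest bar in G1 in both classes.

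Among the ligands, INHBA, which encodes the subunit of activin A, had the lowest p for distended against control. In endothelial-like nuclei it stood at 262 and 163 CPM in the controls, 99.5 and 27.2 in the distended dogs and 29.4 in the graft. Both distended libraries and the graft lay below both controls. This was a log2 fold change of -1.70 ± 0.66 for distended against control (unadjusted p = 0.0187, adjusted p = 1; -1.09 without distended dog 2) and -2.85 ± 0.90 for the graft (adjusted p = 0.0866). DESeq2 called INHBA in the graft against control there (adjusted p = 0.0495), and so did edgeR without control dog 2 (0.0190) and without either distended library (0.0233 and 0.0252). Over the whole vein INHBA had 260 and 106 CPM, 50.3 and 34.2 CPM, and 55.9 CPM in the graft, at -2.10 ± 0.72 for distended against control (unadjusted p = 0.0169). In fibroblast-like nuclei the graft was highest, with 115 CPM beside 74.4 and 16.5 in the controls (2 and 3 UMIs) and 17.3 and 73.8 in the distended dogs (1.93 ± 1.30 against control, adjusted p = 0.549). Endothelial-like nuclei held 92.8% of the UMIs of INHBA in control dog 1, 77.8% in distended dog 1 and 20.7% in the graft. Fibroblast-like cluster 1 held 33.8% of the graft's INHBA UMIs and unnamed cluster 9 held 31.7%. Whether cluster 9 is endothelial is not settled, so the endothelial share of INHBA in the graft is not known.

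BMP6, a BMP ligand best known for its release by liver endothelium, was an endothelial-like gene in each library. That class held between 77.0% and 96.5% of its UMIs. Its endothelial-like level was 422 and 166 CPM in the controls, 193 and 363 in the distended dogs and 679 in the graft. The graft was highest, but control dog 1 lay above both distended dogs and control dog 2 below them, and the log2 fold change of 1.20 ± 0.80 did not pass (adjusted p = 0.438). BMP2, a ligand induced in activated endothelium, had 1 and 5 UMIs in the controls, 18 and 7 in the distended dogs and 935 in the graft, or 1.10, 8.39, 6.71, 12.6 and 43.1 CPM in the whole vein. The graft stood above all 4 others (3.28 ± 1.14 against control, adjusted p = 0.559), and the value was 2.46 without control dog 1 and 5.295 without control dog 2. In endothelial-like nuclei BMP2 had 2.76 ± 1.01 (adjusted p = 0.138). There it was 1.52 without control dog 1 (adjusted p = 0.438) and 5.135 without control dog 2 (adjusted p = 0.00773).

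BMP4, which acts through SMAD1 and SMAD5, stood in endothelial-like nuclei at 97.5 and 74.1 CPM in the controls, 70.1 and 42.3 in the distended dogs and 12.8 in the graft. The 3 groups did not overlap, with the graft lowest. The log2 fold change of the graft was -2.75 ± 0.79 against control (adjusted p = 0.0605) and -2.16 ± 0.77 against distended (adjusted p = 0.234). In fibroblast-like nuclei BMP4 had 0 and 4 UMIs in the controls, 87 and 0 in the distended dogs and 7 in the graft. It was called for grafted against distended (-4.52 ± 1.35, adjusted p = 0.0353). The measured level of the graft nevertheless lay between the distended libraries, since all 87 UMIs came from distended dog 1. In distended dog 2, 0 UMIs allow up to 44.3 CPM, so its order with the graft is not known. Blocking on the dog gave an adjusted p of 0.361. It was 0.0617 without control dog 2 and 2.48e-06 without distended dog 2.

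None of the 3 TGF-beta ligands was called by edgeR with all 5 libraries, and TGFB3 was called for grafted against distended in fibroblast-like nuclei without distended dog 2. TGFB1 had 25 and 21 UMIs in the controls, 76 and 3 in the distended dogs and 347 in the graft, which are 27.4, 35.2, 28.3, 5.39 and 15.99 CPM. Distended dog 2 was lowest and both controls were above the graft. TGFB2 was at 6.58, 25.2, 79.4, 8.99 and 24.0 CPM in the same order, with 94.8% of its 213 UMIs in distended dog 1 in fibroblast-like nuclei. TGFB3 had 0 UMIs in distended dog 2, which allows up to 5.39 CPM, and between 1.38 and 14.2 CPM in the others.

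Of the 9 receptors and co-receptors none was called by edgeR in either class, and 2 stood at an unadjusted p under 0.05 in endothelial-like nuclei of the graft. BMPR2, the type II receptor for BMPs, was at 181 and 160 CPM in the controls, 209 and 481 in the distended dogs and 771 in the graft. Each distended library was above both controls, and the graft was highest (2.18 ± 0.77 against control, adjusted p = 0.127; 0.0495 without the filter on low counts). TGFBR1, the type I receptor for TGF-beta, was at 11.9 and 14.8 CPM, 27.5 and 24.2 CPM, and 52.9 CPM in the graft (2.01 ± 0.74, adjusted p = 0.145). Both genes had the same order of groups. In fibroblast-like nuclei BMPR2 was at 149 and 110 CPM, 85.0 and 103 CPM, and 130 CPM, with the graft between the controls.

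TGFBR2, the type II receptor for TGF-beta, had overlapping groups in the whole vein and in endothelial-like nuclei. In fibroblast-like nuclei the graft, at 63.7 CPM, lay below both controls (112 and 82.3 CPM, from 3 and 15 UMIs) and between the distended dogs (-0.53 ± 1.18 against control, adjusted p = 0.890). Its endothelial-like level was 171 and 59.2 CPM in the controls, 153 and 60.5 in the distended dogs and 89.0 in the graft, and the control dogs differed more from each other than the groups did. TGFBR3, or betaglycan, a co-receptor that presents TGF-beta2 and inhibin, was at 384 and 227 CPM in the controls, 507 and 232 in the distended dogs and 159 in the graft in the whole vein. The graft was lowest (-0.94 ± 1.00, adjusted p = 0.744). ACVR1, a type I receptor for BMPs and activins, lay between 82.8 and 108.5 CPM in the 5 libraries of the whole vein. ENG, or endoglin, an endothelial co-receptor for BMP9, was at 86.6, 47.0, 34.3, 165 and 88.4 CPM. Distended dog 2 was the highest there, and 64.1% of its ENG UMIs lay in unnamed nuclei. The others (BMPR1A, ACVR2A and ACVRL1) had log2 fold changes between -0.80 and 0.97 for the graft against control in the whole vein.

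SMAD3, the DNA-binding SMAD of the TGF-beta and activin arm, rose in endothelial-like nuclei of the graft. It stood at 23.8 and 17.8 CPM in the controls, 65.4 and 33.3 in the distended dogs and 134 in the graft. The 3 groups did not overlap and the graft was highest. Its log2 fold change was 2.65 ± 0.70 against control (adjusted p = 0.0440), with the dog as a block 2.37 (adjusted p = 0.172) and without control dog 2 2.52 (adjusted p = 0.0678), and 1.398 ± 0.675 against distended (adjusted p = 0.466). DESeq2 gave it an adjusted p of 0.0923. In fibroblast-like nuclei SMAD3 was at 0 and 87.8 CPM in the controls, 92.1 and 73.8 in the distended dogs and 73.2 in the graft, with no separation of groups. The difference between the classes was not tested.

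SMAD1, the SMAD of the BMP arm, had the same order of groups in endothelial-like nuclei: 58.3 and 47.4 CPM in the controls, 91.0 and 142 in the distended dogs and 191 in the graft. Its log2 fold change of 1.84 ± 0.69 against control did not pass (adjusted p = 0.148). SMAD2, the partner of SMAD3 in the same arm, did not show that order, with 48.8 and 85.9 CPM, 60.6 and 51.4 CPM, and 73.1 CPM. SMAD4, shared by both arms, was at 52.3 and 32.6 CPM, 41.7 and 63.5 CPM, and 78.5 CPM (0.86 ± 0.68, adjusted p = 0.532). SMAD5 and SMAD9 gave 0.30 ± 0.69 and 0.51 ± 0.96 in that class.

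**Figure D4:**
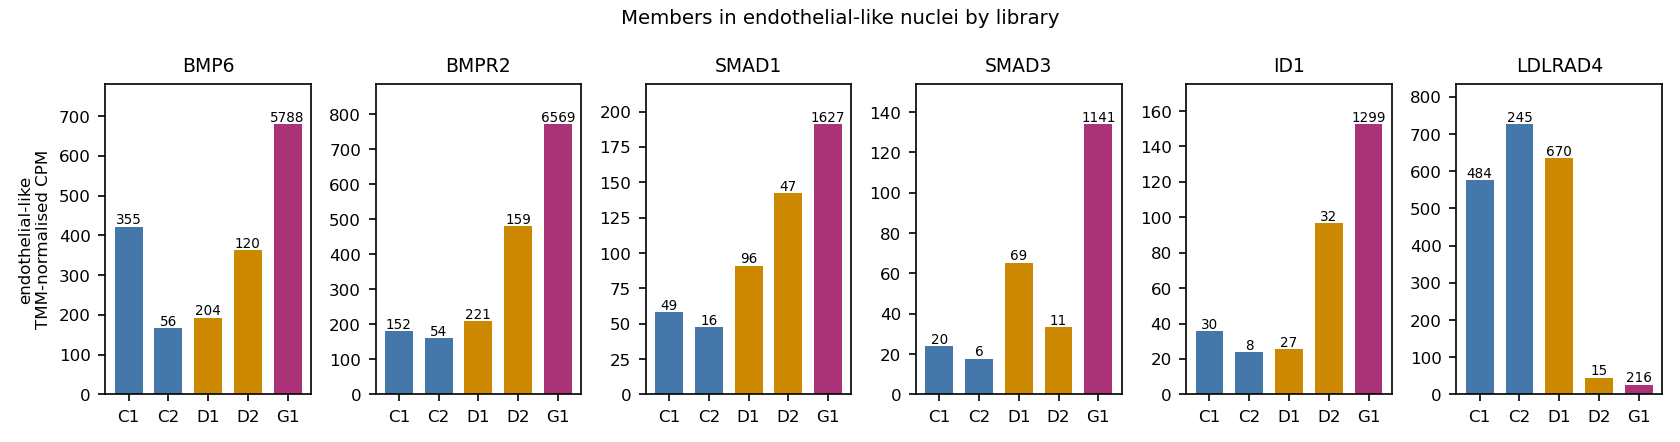
Levels of 6 members in endothelial-like nuclei as TMM-normalised CPM (y axis, from 0) in control dogs 1 and 2 (C1, C2), distended dogs 1 and 2 (D1, D2) and the graft (G1); each bar is 1 library and the number on it is its UMI count. BMPR2, SMAD1 and SMAD3 have both distended libraries between the controls and the graft, and LDLRAD4 drops from 576 and 726 CPM in the controls and 635 in D1 to 45.3 in D2 and 25.3 in G1.

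LDLRAD4, a membrane protein that keeps SMAD2 and SMAD3 from the TGF-beta receptor, was the inhibitor with the largest difference between libraries. In the whole vein it stood at 564 and 505 CPM in the controls, 385 and 37.8 in the distended dogs and 21.9 in the graft. Distended dog 2 lay next to the graft and distended dog 1 next to the controls. In fibroblast-like nuclei LDLRAD4 had 5 and 45 UMIs in the controls, 296 and 0 in the distended dogs and 23 in the graft, or 186, 247, 233, 0 and 6.43 CPM. It fell in the graft against control there (-5.08 ± 1.48, adjusted p = 0.0319), which was lost when blocked on the dog (adjusted p = 0.349), by DESeq2 (0.0918) and on omitting control dog 1 (0.0634), control dog 2 (0.569) or distended dog 2 (0.0630).

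In endothelial-like nuclei LDLRAD4 was at 576 and 726 CPM in the controls, 635 and 45.3 in the distended dogs and 25.3 in the graft. Its log2 fold change against control of -4.68 ± 1.30 missed the threshold (adjusted p = 0.0541; 0.00207 by DESeq2, 0.108 with the dog as a block and 0.000527 without distended dog 2). Against distended it was -3.76 ± 1.23 (adjusted p = 0.179), and -4.64 without distended dog 2 (adjusted p = 0.00217). Without distended dog 1 it was -0.87 and not called, so the difference from the distended veins rests on that library. Summed endothelial markers in this class were 139, 131 and 144 UMIs per 10000 in the controls and distended dog 1, and 86.5 and 78.7 in distended dog 2 and the graft, the libraries with low LDLRAD4. Their part in it was not tested.

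The other intracellular inhibitors were not called. SMAD6, which blocks the BMP arm, was at 37.2 and 76.8 CPM in fibroblast-like nuclei of the controls, 19.7 and 14.8 in the distended dogs and 6.99 in the graft. The groups did not overlap (-3.21 ± 1.28 for the graft against control, adjusted p = 0.197), but the controls rest on 1 and 14 UMIs; without distended dog 2 the adjusted p was 0.0203. In endothelial-like nuclei SMAD6 was at 175, 80.0, 71.1, 227 and 123 CPM with no order of groups. SMURF2, a ubiquitin ligase that marks SMADs and receptors for breakdown, was at 49.9 and 88.9 CPM in endothelial-like controls, 102 and 151 in the distended dogs and 215 in the graft (1.65 ± 0.71, adjusted p = 0.209). SMAD7, which blocks the TGF-beta receptor, was at 109 and 94.8 CPM, 55.9 and 127 CPM, and 42.4 CPM in that class, where the graft was lowest. SKIL and TGIF1, both nuclear co-repressors of SMADs, gave -0.61 ± 0.81 and 1.42 ± 0.83. BAMBI, a decoy receptor, had 0 UMIs in each control, 1 in each distended library and 24 in the graft, and was not tested. At 0.0461 CPM for each UMI, the graft lay under the 3.29 and 5.035 CPM that 0 UMIs allow in the controls. A difference from the controls was thus not detectable at this depth.

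Of the secreted antagonists CHRDL1 lay mostly in fibroblast-like nuclei, with 1119 of its 1207 UMIs, while FST and GREM1 had few UMIs in any class. CHRDL1, which binds BMP4, had 11 and 62 UMIs in fibroblast-like nuclei of the controls, 976 and 0 in the distended dogs and 70 in the graft, or 409, 340, 768, 0 and 19.6 CPM. The graft lay below both controls (-4.24 ± 1.497, adjusted p = 0.111), and the distended dogs lay at either extreme. With 51 fibroblast-like nuclei in distended dog 2, 0 UMIs there allow up to 44.3 CPM. FST, or follistatin, which binds activin, had between 1 and 31 UMIs in a library and 1.43 to 10.8 CPM, highest in the distended dogs (2.23 ± 1.30 against control, unadjusted p = 0.119). GREM1, which binds BMP2 and BMP4, had 0 UMIs in the 4 control and distended libraries and 40 in the graft. At 1.84 CPM in the graft it lay under the 3.29 to 5.39 CPM that 0 UMIs allow in the controls and distended dog 2, so a difference from those was not detectable at this depth. In distended dog 1, 0 UMIs allow up to 1.12 CPM.

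The targets did not move together. ID1, a helix-loop-helix protein induced by BMPs, was at 34.0 and 21.8 CPM in the whole vein of the controls, 13.05 and 228 in the distended dogs and 215 in the graft. Distended dog 2 lay with the graft, and distended dog 1 below both controls. The log2 fold change of the graft was 2.94 ± 1.26 (adjusted p = 0.564). In endothelial-like nuclei ID1 was at 35.7, 23.7, 25.6, 96.7 and 152 CPM in the same order of libraries, at 2.33 ± 0.75 for the graft against control (adjusted p = 0.0958). ID2 and ID3, induced by the same arm, had the graft lowest in that class: ID2 at 9.51 and 14.8 CPM, 33.2 and 15.1 CPM, and 4.58 CPM, and ID3 at 9.51 and 8.89 CPM, 10.4 and 9.07 CPM, and 1.76 CPM. Their log2 fold changes against control were -1.34 ± 0.95 and -2.36 ± 1.26 (adjusted p = 0.473 and 0.321). TGFBI, a matrix protein named for its induction by TGF-beta, had 1 and 27 UMIs in the controls, 157 and 1 in the distended dogs and 242 in the graft. In the whole vein 1 UMI is worth 1.68 CPM in control dog 2, 0.373 in distended dog 1 and 0.0461 in the graft. As a level the graft therefore lay below control dog 2 and distended dog 1, and above the libraries with 1 UMI.

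Most of the ID1 in the graft did not come from the named classes. Cluster 9, left unnamed with under 3 markers of any list, held 251 grafted nuclei and 3042 of the 4667 ID1 UMIs of the graft. Its ID1 level was 9.34 UMIs per 10000, beside 2.89 in endothelial-like cluster 3 and 4.91 in endothelial-like cluster 8. Cluster 9 also held 1120 of the 1918 ENG UMIs. Cluster 9 took 9.28% of the grafted nuclei and 29.9% of the graft's UMIs, and 18.0% of its UMIs came from ribosomal protein genes, against at most 1.59% in the other grafted clusters. Its leading genes included LYZF2, NPPC and RPL15. The 858 unnamed grafted nuclei together carried 81.6 UMIs per 10000 of endothelial markers and 5.45 of fibroblast markers. Grafted endothelial-like nuclei carried 78.7 and 13.1. Being unnamed therefore does not place cluster 9 outside the endothelium, and marker sums are not given for it alone. Without the deepest 5% of nuclei in each library the whole vein value of ID1 was 2.57. In distended dog 2, 95 of 127 ID1 UMIs lay in its 20 unnamed nuclei, and 10 of these nuclei belong to cluster 9.

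Other clusters of the graft differed in which members they held. BMP6 and BMPR2 were at 15.1 and 17.2 UMIs per 10000 in endothelial-like cluster 3 and at 7.08 and 7.82 in endothelial-like cluster 8, while SMAD6 was at 2.08 and 5.71 and INHBA at 0.464 and 1.57. The clusters of 1 class therefore held these genes at different levels, without replicate libraries to test it. LTBP1, LTBP2 and TGFBR3 were at 9.88, 7.44 and 8.93 in fibroblast-like cluster 1. TGFBR1 was at 6.05 in unnamed cluster 7, whose leading genes include FGF10, ADAM28 and CCR1, and LDLRAD4 at 6.29 in unnamed cluster 18, led by genes such as BLNK and BCL11A. GREM1 had 20 of its 40 UMIs in cluster 10, which is neutrophil-like. The 107 neutrophil-like nuclei of clusters 10 and 25 together carried 41.7 UMIs per 10000 of neutrophil markers and 36.9 of endothelial markers, beside 78.7 of the latter in grafted endothelial-like nuclei.

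**Figure D5:**
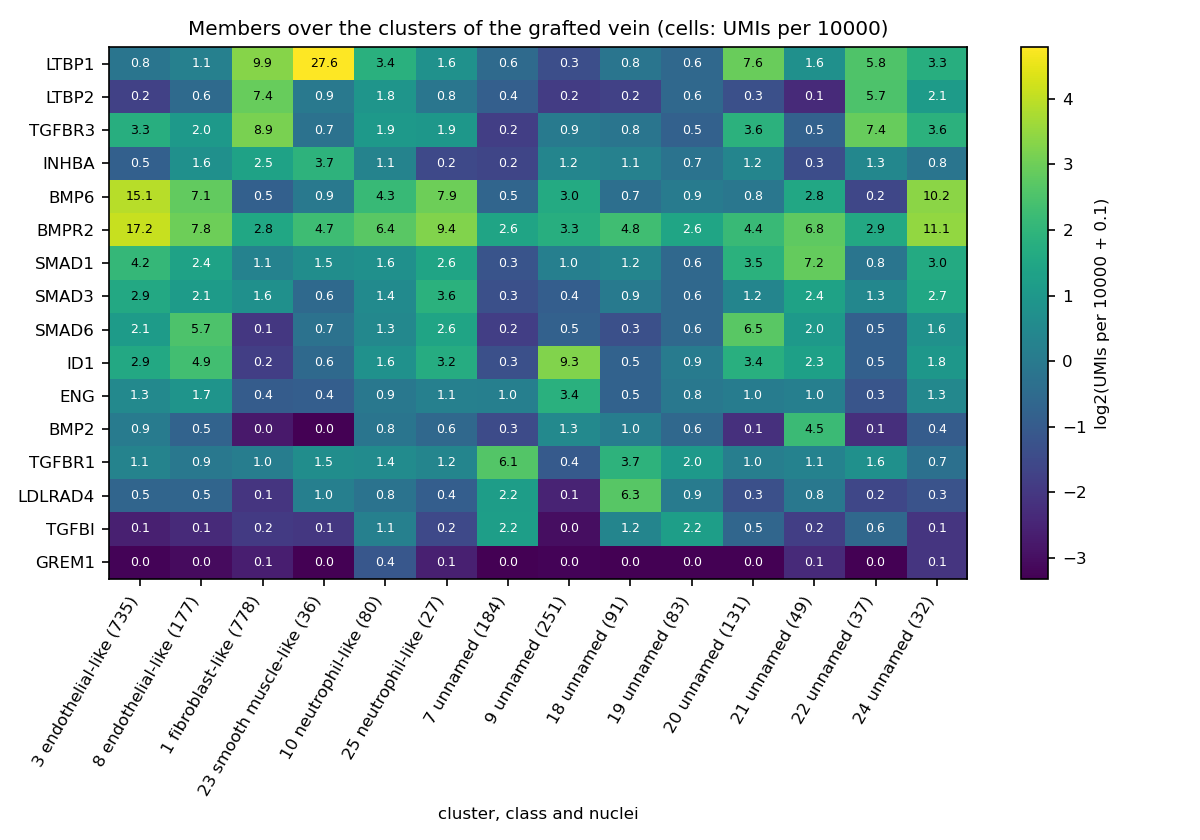
UMIs per 10000 (number in each cell; the colour is log2 of that value plus 0.1) of 16 members, in rows, in each cluster of the grafted vein with its class and number of nuclei, in columns. ID1 and ENG have their highest values in unnamed cluster 9, BMP6 and BMPR2 in endothelial-like cluster 3, LTBP1 in smooth muscle-like cluster 23 and LTBP2 in fibroblast-like cluster 1.

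The smaller classes had at least 20 nuclei in too few libraries for a test and added a few values. Lymphatic endothelial-like nuclei numbered 124 in distended dog 1, where TGFBR2 stood at 8.77, SMAD1 at 4.33 and LTBP1 at 4.11 UMIs per 10000. Macrophage-like nuclei of distended dog 1 held 96 of its 157 TGFBI UMIs, at 21.7 UMIs per 10000, while those of control dog 2 held 1 UMI. LDLRAD4 was at 9.41 and 13.9 UMIs per 10000 in smooth muscle-like nuclei of control dog 1 and distended dog 1 and at 1.03 in those of the graft. No error can be given for these values beyond counting.

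A further 101 genes of the same pathways were listed by role, of which 98 were found. In the whole vein 72 were tested and 0 called in any comparison (0% of all genes). At an unadjusted p under 0.05 by edgeR stood 0 for distended against control (1.41% of all genes). There were 8 for grafted against control (8.82%) and 9 for grafted against distended (5.5%). In endothelial-like nuclei 4 of 58 were called for grafted against control (3.14%). PMEPA1, a TGF-beta induced inhibitor of its receptor signalling, rose from 7.14 and 11.8 CPM in the controls to 90.1 in the graft, with 14.2 and 54.4 in the distended dogs (3.33 ± 0.83, adjusted p = 0.0347; 0.0552 with the dog as a block). COL4A1, a basement membrane collagen, rose from 52.3 and 14.8 CPM to 259, with 148 and 103 in the distended dogs (2.88 ± 0.75, adjusted p = 0.0422; 0.154 with the block). COL3A1, a fibrillar collagen, fell from 111 and 26.7 CPM to 5.75 (-3.61 ± 0.95, adjusted p = 0.0432; 0.0617 with the block). FOXS1, a forkhead factor, fell from 66.6 and 5.92 CPM to 0.352, which is 3 UMIs. Its pooled ratio was 0.00715 with a 95% counting interval of 0.00143 to 0.0220 (adjusted p = 0.0151, and 0.0368 with the block). The pooled control counts rest mostly on control dog 1, and the interval does not cover the spread between the controls.

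In fibroblast-like nuclei 5 of 58 further pathway genes were called for grafted against control (2.47%), 2 higher and 3 lower. TIMP1, an inhibitor of matrix proteases, had 0 UMIs in both controls, 8 and 1 in the distended dogs and 494 in the graft. At 138 CPM the graft lay above the 111.6 and 16.5 CPM that 0 UMIs allow in control dogs 1 and 2 (adjusted p = 0.0257). ELN, the elastin gene, was at 781 and 1652 CPM in the controls, 1561 and 0 in the distended dogs and 20.4 in the graft (-5.90 ± 1.70, adjusted p = 0.0300), so distended dog 2 lay with the graft. HTRA3, a protease that binds TGF-beta, and ID4, a relative of ID1, also fell (-4.71 ± 1.41 and -4.63 ± 1.42, adjusted p = 0.0390 and 0.0465). Blocking on the dog left none of these 4 called (adjusted p between 0.201 and 0.652). For grafted against distended, 3 of 58 were called (3.04%): SNAI1, TIMP1 and ELN (adjusted p = 0.0356, 0.0370 and 0.0463). With the dog as a block these adjusted p became 0.259, 0.469 and 0.144, so none of the 3 remained called. ELN had the measured level of the graft between the distended libraries, but 0 UMIs in distended dog 2 allow up to 44.3 CPM, above the graft. SNAI1, a repressor of cadherins, had 2 UMIs in the distended dogs and 175 in the graft. This was a pooled ratio of 32.8 with a 95% counting interval of 8.93 to 273, which does not cover the spread between libraries. For distended against control 0 of 58 were called in either class by edgeR, with 7 at an unadjusted p under 0.05 in endothelial-like nuclei (3.48%) and 1 in fibroblast-like nuclei (1.33%).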

How the data were processed

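Nuclei of frozen vein were sequenced with 10x Genomics 3' chemistry, per the labels' protocols, and read with Cell Ranger 7.0.0, per the submitters' processing notes. No coordinates are printed because no source used here names a genome build. The matrices the authors deposited hold raw UMI counts per feature and barcode. Of 7391 barcodes, 6855 with at least 100 genes were kept. Scrublet marked 25 (0.365%), too few to trust, so doublets were kept. Features that name no gene held 0.588% to 11.7% of the UMIs and stayed out of all sums.

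Clusters (scanpy 1.11.5, Leiden, resolution 0.8) were named from 16 marker lists by at least 3 markers and a lead of 2 over the next list. Unnamed clusters were split once more. The lead and the split were set after the data were seen. UMIs were summed per library and class (at least 20 nuclei) and tested over all genes with edgeR 4.0.16 (TMM, filterByExpr, quasi-likelihood, Benjamini-Hochberg, all groups in 1 fit, in which the single graft is assumed to vary like the other groups; residual degrees of freedom 2). The prior degrees of freedom, which weight a trend shared by all genes, were 7.31 in the whole vein and 17.8 in endothelial-like nuclei. In fibroblast-like nuclei they were infinite, so the quasi-likelihood dispersion there was taken wholly from the trend. A fibroblast-like gene whose libraries of 1 group lay far apart got no wider error for it, as with BMP4 in the distended dogs. DESeq2 1.42.0 was an alternative. The scripts were tested on simulated data. For grafted against control, 0%, 0% and 1% of true 4-fold changes were called in the whole vein, endothelial-like and fibroblast-like nuclei. For 16-fold changes it was 17%, 40% and 21%. A member that was not called can therefore still have changed by 4-fold or more. No smooth muscle-like test was possible.

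Members and lists were chosen with earlier results of these data known. Members named are those called, those with an unadjusted p under 0.05 and no overlap of libraries, and the up to 4 of each role with most UMIs; members outside this rule, whose values had been seen, are given more briefly. Further pathway genes named are those called; 1 of them is not reported here. The marker lists of pericytes, dendritic, T/NK, B/plasma, mast, adipocyte, neural, erythroid, epithelial and skeletal muscle cells named no class. Control and distended segments come from the same dogs per the labels' protocols, which pairs them; the correlation of the 2 dogs' deviations was -0.28 in the whole vein, -0.0016 in endothelial-like and 0.018 in fibroblast-like nuclei.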

Additional observations from a re-analysis of the deposited data

Results flagged for a closer look

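For 4 members the graft lay on opposite sides of both control libraries in the 2 tested classes. The log2 fold change of grafted against control for INHBA was -2.85 in endothelial-like and 1.93 in fibroblast-like nuclei. For TGFBR3 it was -0.95 and 0.66, for ENG -0.22 and 0.49 and for SMAD7 -1.27 and 0.38. The difference between the classes was not tested, and no explanation was weighed. By edgeR with all 5 libraries none of the 8 values was called. DESeq2 called INHBA in endothelial-like nuclei (adjusted p = 0.0495), as did edgeR without control dog 2 (0.0190) or either distended library (0.0233 and 0.0252). The control libraries held 2 and 3 UMIs of INHBA, 2 and 75 of TGFBR3, 0 and 3 of ENG and 2 and 10 of SMAD7 in fibroblast-like nuclei.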

How the results depend on the processing

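The 37 named member results kept their direction under each alternative run; 31 alternative values fell below the threshold and 48 rose past it. The cause was not tested in any case below. Except for the replicate block, the calls over all genes in the same runs are not given. Whether the member counts below differ from the share over all genes can therefore not be read from them. In the whole vein the counts of 0 members became 1 for grafted against control by DESeq2 and 1 without the filter on low counts, and 1 for grafted against distended without that filter; omitting 1 library at a time gave 0 to 2 (distended against control), 0 to 6 (grafted against control) and 0 to 3 (grafted against distended). In endothelial-like nuclei the 3 calls for grafted against control became 7 without the filter, 0 with the replicate block, 1 without the 4 dominant features, 1 at a minimum of 200 genes, 6 without the deepest 5% of nuclei (chosen after seeing the data), 0 with clusters made without pathway genes, and 4 to 8 omitting 1 library; the 0 for grafted against distended became 2 without the filter and 0 to 2 omitting 1 library, and distended against control 0 to 1. In fibroblast-like nuclei the 2 calls for grafted against control became 1 by DESeq2, 0 without the filter, 0 with the replicate block, 1 without the dominant features, 1 at 200 genes and 0 to 2 omitting 1 library; the 1 for grafted against distended became 0 by DESeq2, 0 with RLE size factors, 2 without the filter, 0 with the replicate block, 0 without the dominant features, 2 at 200 genes and 0 to 6 omitting 1 library. Of all genes, the 339, 113, 182 and 224 called for the graft (endothelial-like against control and distended, then fibroblast-like) became 95, 0, 7 and 119 with the block. RLE scaling moved the fibroblast-like median over all genes from 0.28 to 0.62 for grafted against control. Of 36 further pathway results 6 reversed on omitting 1 library. For distended against control, with the range over omitted libraries, these were DCN (-0.25 to 4.26) and FOXS1 (-3.36 to 0.13) in the whole vein, TIMP1 (-3.27 to 0.99) and JUNB (-3.15 to 1.90) in endothelial-like nuclei and SPHK1 (-0.67 to 10.3) in fibroblast-like nuclei. For grafted against distended it was ELN (-6.22 to 7.31) in fibroblast-like nuclei. Control dog 1 and distended dog 2 had 51 fibroblast-like nuclei each, which limits that class. No smooth muscle-like alternative gave a value.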
